A study of Mus musculus with 10 samples.

Results

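The proteasome subunit genes are the 43 protein-coding genes, of 49315 gene identifiers counted, whose mouse symbol is Psma, Psmb, Psmc, Psmd or Psme followed by a number. They were read in the gastrocnemius of 10 male C57BL6J mice, 5 AHRfl/fl and 5 AHRmKO. AHRfl/fl mice carry a floxed Ahr gene, which encodes the aryl hydrocarbon receptor, and lack Cre. AHRmKO mice carry the same floxed gene together with HSA-MCM, a MerCreMer fusion driven by the human ACTA1 promoter, which tamoxifen activates in myofibres and not in the other cells of the muscle. All 10 mice had inhaled cigarette smoke for 16 weeks, on 5 days per week and 2 times per day for 1 h, at 220 ± 80 mg/m3. Smoke began 4 weeks after tamoxifen according to the sample labels, which name only the knockout mice in that sentence. The main text of the paper gives a shorter interval, and its supplement gives the same 4 weeks. Muscle was taken 72 h after the last exposure. The Results of the paper give a range that starts earlier and ends at 72 h. They describe receptor activation as back at baseline by that time. The age of the mice is not in the labels, and air-exposed muscle was not analysed here. The comparison therefore asks how proteasome transcripts differ between smoke-exposed AHRfl/fl and AHRmKO muscles. Only AHRmKO mice carry MerCreMer, and the labels name tamoxifen for them alone. Loss of the receptor gene therefore cannot be told apart from MerCreMer itself, or from tamoxifen if only AHRmKO mice received it.

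The proteasome is the protease that degrades proteins tagged with ubiquitin. Its barrel, the 20S core, is built of alpha rings (Psma genes), which form the gate, around beta rings (Psmb genes), of which Psmb5, Psmb6 and Psmb7 encode the catalytic subunits. The 19S regulatory particle caps the barrel with a ring of ATPases that unfold the substrate (Psmc genes) and with non-ATPase subunits (most Psmd genes). Some of the non-ATPase subunits bind or remove ubiquitin. Interferon induces Psmb8, Psmb9 and Psmb10, which replace Psmb5, Psmb6 and Psmb7 in the immunoproteasome, and Psme1 and Psme2, which form an alternative cap. In skeletal muscle the ubiquitin-proteasome system is the main route by which myofibrillar proteins are broken down during atrophy, and the ligand-bound aryl hydrocarbon receptor is itself degraded by it. The members were accordingly described as 8 core alpha genes, 8 core beta genes, 5 immunoproteasome genes, 6 regulatory ATPase genes, 11 regulatory non-ATPase genes, 3 chaperones of 19S assembly (Psmd5, Psmd9 and Psmd10) and 2 other activators (Psme3 and Psme4).

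Promoters were compared first, because the receptor and its partner bind DNA at the letters GCGTG, the core of the xenobiotic response element (XRE). RefSeq promoters of GRCm38.p6, reaching from 250 bases before to 50 bases after a start site, were at hand for 36 of the 43 members (39 sequences). Psma8, Psmb1, Psmb2, Psmb7, Psmc3, Psmd3 and Psmd7 had none. Each was searched on both strands for 5 motifs: GCGTG, the antioxidant response element TGACNNNGC (ARE), the interferon-stimulated response element core GAAANNGAA (ISRE), the interferon-gamma activated site TTCNNNGAA (GAS), and the CCAAT box. The promoters shown are those of the catalytic pairs Psmb5 with Psmb8 and Psmb6 with Psmb9, whose expression is compared below, and of Psmd14, the member with the smallest P value between the genotypes. They run 5′ to 3′ and end 30 bases after the start site, with every match to any of the 5 motifs in capitals.
Psmb5: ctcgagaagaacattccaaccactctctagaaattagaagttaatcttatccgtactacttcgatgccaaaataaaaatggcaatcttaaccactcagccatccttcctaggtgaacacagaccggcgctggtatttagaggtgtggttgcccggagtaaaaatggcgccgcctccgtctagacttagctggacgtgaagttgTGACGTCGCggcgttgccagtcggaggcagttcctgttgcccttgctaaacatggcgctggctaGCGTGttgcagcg
Psmb8: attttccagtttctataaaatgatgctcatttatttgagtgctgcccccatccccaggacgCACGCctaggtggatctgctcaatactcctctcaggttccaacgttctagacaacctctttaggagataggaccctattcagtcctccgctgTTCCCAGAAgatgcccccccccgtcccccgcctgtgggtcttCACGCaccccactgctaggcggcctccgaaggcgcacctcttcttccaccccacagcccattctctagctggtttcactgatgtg
Psmb6: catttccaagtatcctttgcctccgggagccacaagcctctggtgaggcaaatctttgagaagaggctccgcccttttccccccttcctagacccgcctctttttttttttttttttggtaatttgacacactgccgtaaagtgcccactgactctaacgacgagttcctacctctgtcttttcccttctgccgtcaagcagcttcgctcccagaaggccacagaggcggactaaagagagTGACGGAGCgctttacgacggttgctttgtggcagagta
Psmb9: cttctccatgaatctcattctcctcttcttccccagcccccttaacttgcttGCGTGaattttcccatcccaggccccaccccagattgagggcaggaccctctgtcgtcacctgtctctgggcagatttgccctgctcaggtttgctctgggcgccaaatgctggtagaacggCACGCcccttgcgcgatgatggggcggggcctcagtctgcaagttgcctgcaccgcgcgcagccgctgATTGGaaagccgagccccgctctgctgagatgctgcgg
Psmd14: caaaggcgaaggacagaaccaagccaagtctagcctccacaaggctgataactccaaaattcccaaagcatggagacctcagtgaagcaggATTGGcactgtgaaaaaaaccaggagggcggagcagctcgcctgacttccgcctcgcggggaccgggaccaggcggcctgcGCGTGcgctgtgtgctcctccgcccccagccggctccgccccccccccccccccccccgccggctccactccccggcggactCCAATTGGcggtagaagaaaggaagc
The windows lie at chr14:54617966-54618245, minus strand (Psmb5), at chr17:34197945-34198224, plus strand (Psmb8), at chr11:70525107-70525386, plus strand (Psmb6), at chr17:34187301-34187580, minus strand (Psmb9) and at chr2:61711444-61711723, plus strand (Psmd14). The Psmb5 promoter held an ARE that begins 47 bases before the start and a GCGTG match 18 bases into the transcript, and that of Psmb6 held an ARE 9 bases before the start. Psmb8 held GCGTG matches 189 and 55 bases before the start and a GAS 97 bases before it. Psmb9 held GCGTG matches 198 and 76 bases before the start and a CCAAT match 8 bases before it, and Psmd14 held a GCGTG match 78 bases before the start beside CCAAT matches.

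GCGTG occurred in 21 of the 39 member promoters (53.8%), against 32.4% of all 32851 promoters of the same length. It was in 5 of 6 immunoproteasome promoters, 8 of 13 core promoters and 5 of 15 promoters of the 19S particle. The ARE was found in 6 of 39 against 12.4% of all promoters, the ISRE core in 6 of 39 against 8.56%, the GAS in 2 of 39 against 8.30%, and CCAAT in 14 of 39 against 37.4%. The 3 genes with a pair of windows are Psma6, Psmc2 and Psme2, and the Psme2 windows overlap and share a GCGTG site. By gene, GCGTG was in 20 of 36 members, 4 of 5 immunoproteasome genes, 8 of 12 core genes and 5 of 14 genes of the 19S particle. These counts describe letters in a window and no binding was measured.

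Raw counts per library summed to between 30393035 and 37954388, and no 2 libraries were identical. Each mouse was taken as 1 replicate. Levels are in CPM (counts scaled to one common library total after TMM normalization), and lists of 5 values follow the order of AHRfl/fl mice 11, 12, 13, 15 and 33 and of AHRmKO mice 8, 9, 19, 22 and 34. The targeted gene Ahr had 43 to 110 counts in AHRfl/fl and 31 to 80 counts in AHRmKO libraries, so the groups overlapped (log2 fold change -0.35 with a standard error, SE, of 0.26, adjusted P = 0.844 by edgeR). Esr1, whose hormone-binding part is carried by MerCreMer, had 544 to 658 counts in AHRfl/fl and 9770 to 24975 in AHRmKO libraries, which separated the genotypes as labelled. Counts per gene cannot separate the floxed exon, and cells other than myofibres keep the gene. Y-linked transcripts were present in all 10 libraries (282 to 2723 counts of each of 4 genes), and Xist had 44 to 75 counts in 5 of them, 3 AHRfl/fl and 2 AHRmKO, against 0 to 3 counts in the other 5. Markers of fast muscle, among them Acta1 and Ckm, were abundant. They summed to 125403 to 177943 CPM in AHRfl/fl and 139181 to 171278 CPM in AHRmKO muscle. In a bulk muscle sample, fewer cells of a type and less RNA per cell cannot be told apart.

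Of the 43 members, 41 passed the filter on low counts. The 2 that did not were Psma8, an alpha subunit of the testis, with 0 to 4 counts, and Psmb11, the catalytic subunit of the thymus, with 0 to 2 counts per library. The markers of testis (Tnp1 and Prm1) summed to at most 0.031 CPM. Those of thymus (Foxn1 and Ccl25) summed to 3.40 to 4.03 CPM in AHRfl/fl and 3.18 to 4.45 CPM in AHRmKO muscle, and 1 of the 2 passed the filter. Levels were compared between genes only per length, as CPM per kb of the principal transcript of GENCODE M21. By this length the highest member was Psmb7, at 207 ± 16.1 in AHRfl/fl and 204 ± 10.2 in AHRmKO muscle (SD, n = 5), followed by Psmb6 at 187 ± 17.3 in AHRfl/fl and 178 ± 18.1 in AHRmKO muscle. These values differed by less than the sum of the SDs of the pair in either group. In the alpha ring, levels ran from 28.4 CPM per kb for Psma2 to 126 for Psma6 (mean over 10 mice), which is 4.44-fold. In the beta ring they ran from 64.5 for Psmb1 to 205 for Psmb7. Subunits that share a ring in equal number had unequal transcript levels. ATPase transcripts spanned 39.3 CPM per kb (Psmc6) to 144 (Psmc3), and non-ATPase transcripts spanned 33.1 (Psmd14, which removes ubiquitin chains) to 128 (Psmd4, a ubiquitin receptor). The order at the top depends on the length used. Per kb of the union of a gene's exons, a length added after seeing the data, Psmb7 stood at 69.6 CPM and Psmb6 at 77.9, and the highest member was Psmb5 at 123. By that length Psmc5 (109.9) and Psmc1 (99.8) exceeded Psmc3 (90.1), and Psmd7 (83.0) exceeded Psmd4 (60.9). Psma6 remained the highest alpha gene, and Psma2, Psmb1, Psmc6 and Psmd14 remained the lowest tested of their classes.

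The immunoproteasome genes sat far below their constitutive counterparts. Psmb9 was the lowest member tested at 1.47 CPM per kb, Psmb8 stood at 2.72 and Psmb10 at 8.00, whereas Psmb5, Psmb6 and Psmb7 stood at 123, 183 and 205. The highest and lowest members tested differed 139.8-fold (Psmb7 over Psmb9), or 227-fold per kb of the exon union (Psmb5 over Psmb9). The cap subunits Psme1 and Psme2 were higher, at 26.1 and 21.2 CPM per kb, beside the other activators Psme3 (PA28 gamma, a nuclear cap) at 23.3 and Psme4 (PA200) at 32.5. The 19S assembly chaperones were also sparse, with 4.32 for Psmd5, 7.69 for Psmd9 and 8.16 for Psmd10. Exons of other genes, on either strand, overlap 34.9% of the Psmb7 transcript (Nek6), 17.2% of Psmd13 (Sirt3), 15.7% of Psmb9 (Tap1), 12.1% of Psmb5 (Mir686) and 11.4% of Psmb8 (Gm20496). Smaller overlaps were in Psma4 (9.79%), Psmd1 (9.67%), Psma5 (4.84%), Psme1 (1.17%) and Psmd3 (0.79%). In these stretches the gene of origin of a read is uncertain, and whether the strand would resolve it was not examined. Psme2 has a near-identical retrogene, Psme2b (29 to 51 counts), and reads that the copies share are uncertain.

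**Figure D1:**
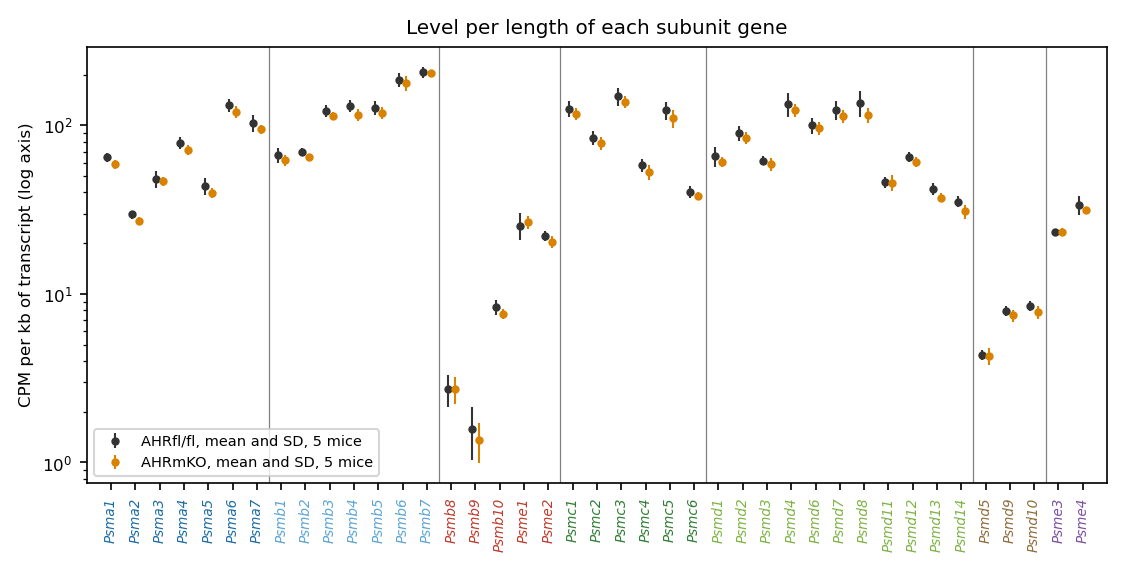
Mean CPM per kb of the principal transcript (log axis) of the 41 tested subunit genes in AHRfl/fl (black) and AHRmKO (orange) muscle, with SD over 5 mice each, label colours marking the 7 classes. Psmb8, Psmb9, Psmb10 and the 3 assembly chaperones lie below 10 CPM per kb, and every other gene lies above 20.

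No proteasome subunit gene differed between the genotypes at an adjusted P below 0.05, 0 of 41, where 0.0068% of the 14714 genes tested did (1 gene, Esr1). The smallest adjusted P among the members was 0.691, for Psmd14. At an unadjusted P below 0.05, 4 members were lower in AHRmKO muscle (Psmd14, Psmd13, Psmb4 and Psmd8), against 3.38% of all genes, and 0 were higher, against 3.23% of all genes. DESeq2 likewise called 0 members and gave 4 at an unadjusted P below 0.05, and limma-voom called 0 and gave 3. The fitted log2 fold change was below 0 for 39 of 41 members, against 48.5% of all genes. Its median over the members was -0.10, a change of -7.01% in AHRmKO muscle, and over all genes it was 0.0056. Members vary together from mouse to mouse, so the 39 are not independent observations and no test was placed on the count. Without AHRfl/fl mouse 12 the median over the members was -0.05, 34 members had a fold change below 0, and 0 members had an unadjusted P below 0.05. The number with such a P was also 0 without AHRmKO mouse 8, and it was 12 with scaling by library size alone. Without AHRfl/fl mouse 12 the class medians moved to -0.07 for the alpha ring, -0.05 for the beta ring and -0.04 for the 19S particle. With slow-fibre score in the fit the medians of the beta ring and of the 19S particle were -0.07 and -0.05. Intervals of single genes in the 20S core and the 19S particle had half-widths of 0.12 to 0.25 on the log2 scale. They reached down to -0.49 and up to 0.16.

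**Figure D2:**
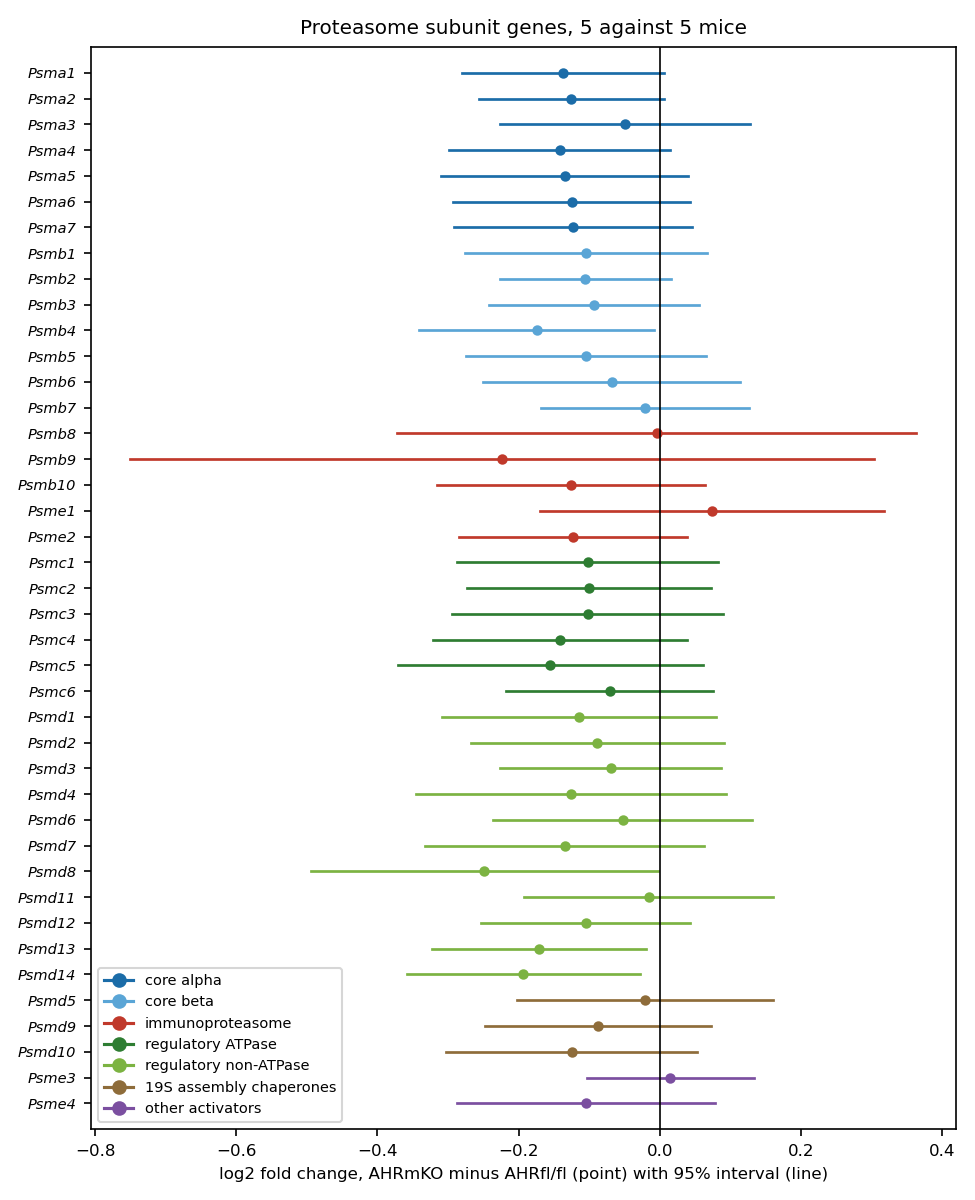
Fitted log2 fold change (AHRmKO minus AHRfl/fl, x axis) of each tested subunit gene with its 95% interval, coloured by class. Points lie left of 0 for 39 of 41 genes, and the intervals of all but Psmb4, Psmd8, Psmd13 and Psmd14 include 0.

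All 7 tested genes of the alpha ring had a fitted log2 fold change below 0, between -0.14 and -0.05 (median -0.13), and 0 had an unadjusted P below 0.05. Psma1 (ENSMUSG00000030751, chromosome 7, 114264606 to 114276118, minus strand in GRCm38) came nearest. Its level was 74.5, 86.7, 75.0, 74.9 and 77.5 CPM in AHRfl/fl and 68.2, 65.1, 76.0, 68.9 and 75.1 CPM in AHRmKO muscle. AHRfl/fl mice 12 and 33 stood above all AHRmKO mice, and AHRmKO mouse 19 exceeded the other 3 AHRfl/fl mice (log2 fold change -0.14, SE 0.07, 95% interval -0.28 to 0.0055, adjusted P = 0.769 and unadjusted P = 0.0581 by edgeR). Psma2, the lowest of the ring per length, measured 86.2 ± 4.68 CPM in AHRfl/fl and 79.0 ± 4.18 CPM in AHRmKO muscle (SD, n = 5, adjusted P = 0.772 by edgeR). For Psma6, the highest, the levels were 137 ± 12.5 CPM and 126 ± 10.4 CPM (adjusted P = 0.815).

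The beta ring was alike, with all 7 tested genes below 0, between -0.17 and -0.02 (median -0.10). Psmb4, a structural subunit (ENSMUSG00000005779, chromosome 3, 94884093 to 94886961, minus strand), measured 158, 174, 154, 139 and 147 CPM in AHRfl/fl and 121, 135, 152, 136 and 141 CPM in AHRmKO muscle. The 3 highest mice were AHRfl/fl, and AHRmKO mouse 19 exceeded AHRfl/fl mice 15 and 33 (log2 fold change -0.17, SE 0.08, 95% interval -0.34 to -0.0081, adjusted P = 0.734 and unadjusted P = 0.0412 by edgeR). Psmb2, another structural subunit (ENSMUSG00000028837, chromosome 4, 126677630 to 126709714, plus strand), was the only member whose groups did not overlap, against 1.4% of all genes. It measured 59.2, 66.1, 58.4, 58.6 and 57.7 CPM in AHRfl/fl and 54.9, 54.4, 57.7, 55.2 and 56.7 CPM in AHRmKO muscle. The lowest AHRfl/fl and the highest AHRmKO mouse were 57.74 and 57.68 CPM, a gap far smaller than the range within AHRfl/fl mice (log2 fold change -0.11, SE 0.06, 95% interval -0.23 to 0.02, adjusted P = 0.792 and unadjusted P = 0.0827 by edgeR). With 1 mouse left out the log2 fold change of Psmb2 ran from -0.119 to -0.0691. Psmb1, the lowest of the ring per length, had a log2 fold change of -0.10 (SE 0.08, adjusted P = 0.847 by edgeR).

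The constitutive catalytic genes differed little. Psmb5, the chymotrypsin-like subunit (ENSMUSG00000022193, chromosome 14, 54614119 to 54618022, minus strand), measured 118, 130.3, 116, 103 and 107 CPM in AHRfl/fl and 95.2, 101, 118, 108 and 111 CPM in AHRmKO muscle. The groups overlapped, with the extremes in AHRfl/fl mouse 12 and AHRmKO mouse 8. Its log2 fold change was -0.10 (SE 0.08, adjusted P = 0.846 by edgeR), with a 95% interval of -0.27 to 0.07. The caspase-like subunit Psmb6 (ENSMUSG00000018286, chromosome 11, 70525367 to 70527858, plus strand) measured 145, 171, 153, 135 and 142 CPM and 120.4, 138, 158, 143 and 152 CPM. Its log2 fold change was -0.07 (SE 0.08, adjusted P = 0.921 by edgeR). The trypsin-like subunit Psmb7 (ENSMUSG00000026750, chromosome 2, 38588036 to 38644087, minus strand) measured 245, 268, 239.9, 224 and 222 CPM and 225, 230.2, 255, 231 and 240.5 CPM. Its log2 fold change was -0.02 (SE 0.07, adjusted P = 0.979 by edgeR), the 95% interval reached from -0.17 to 0.13, and the sign turned without AHRfl/fl mouse 12 (0.02). Leaving out AHRfl/fl mouse 12 gave log2 fold changes of -0.05 for Psmb5, -0.01 for Psmb6 and -0.04 for Psmb1. Psmb6 was also -0.01 without AHRmKO mouse 8 and -0.02 with slow-fibre score in the fit.

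All 17 genes of the 19S regulatory particle had a fitted log2 fold change below 0 (median -0.10). In the ATPase ring the 6 genes lay between -0.16 and -0.07, and 0 of them had an unadjusted P below 0.05. Psmc4 had the smallest P of the ring, with 85.2, 96.0, 83.2, 79.9 and 75.6 CPM in AHRfl/fl and 65.4, 73.1, 78.7, 77.0 and 86.8 CPM in AHRmKO muscle. AHRmKO mouse 34 exceeded all AHRfl/fl mice but mouse 12 (log2 fold change -0.14, SE 0.08, 95% interval -0.32 to 0.04, adjusted P = 0.815 and unadjusted P = 0.115 by edgeR). With 1 mouse left out the log2 fold change of Psmc4 ran from -0.192 to -0.0884. Psmc3, the highest per length, measured 243 ± 29.0 CPM and 227 ± 19.6 CPM (SD, n = 5, adjusted P = 0.878 by edgeR), and Psmc6, the lowest, measured 89.98 ± 7.19 CPM and 85.7 ± 4.66 CPM (adjusted P = 0.887).

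Among the 11 non-ATPase genes, which lay between -0.25 and -0.02, 3 had an unadjusted P below 0.05. Psmd14, the deubiquitinase that cuts chains off the substrate as it enters (ENSMUSG00000026914, chromosome 2, 61711694 to 61800376, plus strand), measured 57.8, 59.5, 52.0, 49.8 and 53.3 CPM in AHRfl/fl and 43.0, 47.9, 46.6, 45.5 and 55.2 CPM in AHRmKO muscle. The 4 lowest mice were AHRmKO, and AHRmKO mouse 34 exceeded 3 AHRfl/fl mice (log2 fold change -0.19, SE 0.08, 95% interval -0.36 to -0.03, adjusted P = 0.691 and unadjusted P = 0.0249 by edgeR). Psmd13, a structural subunit of the lid (ENSMUSG00000025487, chromosome 7, 140881968 to 140898643, plus strand), measured 83.2, 92.3, 86.9, 74.1 and 80.6 CPM and 66.8, 74.3, 77.2, 73.8 and 78.4 CPM. AHRfl/fl mouse 15 lay within the AHRmKO range, and the other 4 AHRfl/fl mice lay above it (log2 fold change -0.17, SE 0.07, 95% interval -0.32 to -0.02, adjusted P = 0.707 and unadjusted P = 0.0293 by edgeR). Psmd8, another lid subunit (ENSMUSG00000030591, chromosome 7, 29174188 to 29180701, minus strand), had the largest difference of the members, with 239.6, 245, 224, 169 and 173 CPM and 162, 181, 186, 156 and 199.7 CPM. AHRfl/fl mice 11, 12 and 13 stood above all AHRmKO mice, and AHRfl/fl mice 15 and 33 stood among them (log2 fold change -0.25, SE 0.11, 95% interval -0.49 to -0.0028, adjusted P = 0.753 and unadjusted P = 0.0478 by edgeR). With slow-fibre score in the fit its log2 fold change was -0.14. The ubiquitin receptor Psmd4, the highest per length, measured 178 ± 28.0 CPM and 164 ± 15.01 CPM (SD, n = 5, adjusted P = 0.862 by edgeR).

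The immunoproteasome genes showed no call either (0 of 5, 0 at an unadjusted P below 0.05), with 4 fold changes below 0 and 1 above. Psmb8 (ENSMUSG00000024338, chromosome 17, 34197721 to 34201454, plus strand), which replaces Psmb5, measured 4.61, 3.95, 3.53, 6.01 and 4.08 CPM in AHRfl/fl and 4.18, 4.504, 5.28, 4.97 and 3.17 CPM in AHRmKO muscle. AHRfl/fl mouse 15 was the highest and AHRmKO mouse 34 the lowest (log2 fold change -0.004, SE 0.17, 95% interval -0.37 to 0.36, adjusted P = 0.999 and unadjusted P = 0.982 by edgeR). Psmb9 (ENSMUSG00000096727, chromosome 17, 34181987 to 34187764, minus strand), which replaces Psmb6, measured 1.99, 1.76, 1.75, 3.46 and 1.73 CPM and 1.84, 1.44, 2.20, 2.42 and 1.26 CPM, with 42 to 121 counts per library, and it had the widest interval of the members. Mouse 15 again stood apart, and without it the log2 fold change of Psmb9 was 0.02 in place of -0.22 (SE 0.24, adjusted P = 0.907 by edgeR). Psmb10 (ENSMUSG00000031897, chromosome 8, 105935735 to 105938444, minus strand), which replaces Psmb7, measured 11.6, 9.72, 10.3, 12.4 and 10.7 CPM and 9.59, 10.5, 10.8, 10.2 and 9.12 CPM, with a log2 fold change of -0.13 (SE 0.09, adjusted P = 0.834 by edgeR). With 1 mouse left out the log2 fold change of Psmb10 ran from -0.166 to -0.0746. The groups overlapped in all 3.

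Of the cap pair, Psme1 (ENSMUSG00000022216, chromosome 14, 55578123 to 55581529, plus strand) measured 24.2, 23.9, 25.4, 34.5 and 33.4 CPM in AHRfl/fl and 31.96, 27.7, 32.1, 30.8 and 26.3 CPM in AHRmKO muscle. AHRfl/fl mice 11, 12 and 13 were below all AHRmKO mice, and mice 15 and 33 were above them (log2 fold change 0.07, SE 0.11, 95% interval -0.17 to 0.32, adjusted P = 0.939 and unadjusted P = 0.523 by edgeR). With 1 mouse left out the log2 fold change of Psme1 ran from 0.018 to 0.156. Its partner Psme2 (ENSMUSG00000079197, chromosome 14, 55587441 to 55591113, minus strand) measured 20.6, 22.4, 19.8, 23.2 and 20.5 CPM and 19.9, 17.5, 21.4, 20.6 and 18.3 CPM, with a log2 fold change of -0.12 (SE 0.07, adjusted P = 0.815 by edgeR). Over the 5 immunoproteasome genes the median log2 fold change was -0.12, and without AHRfl/fl mouse 15 it was 0.02. The widest interval, that of Psmb9, ran from -0.75 to 0.30, and the narrowest, that of Psme2, from -0.28 to 0.04.

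The balance between inducible and constitutive catalytic subunits was read as the ratio of their levels per length in each mouse, and the 3 ratios were compared by a two-sided exact permutation test of the genotype labels, which cannot give a P below 0.00794. Psmb8 amounted to 2.15, 1.67, 1.68, 3.23 and 2.11% of Psmb5 in AHRfl/fl and to 2.42, 2.46, 2.48, 2.53 and 1.58% in AHRmKO muscle. The difference of the mean log2 ratio was 0.10, with a 95% interval of -0.41 to 0.55 (exact permutation P = 0.635). It was 0.02 without AHRfl/fl mouse 12, 0.02 without mouse 13, 0.25 without mouse 15, 0.06 without AHRmKO mouse 22 and 0.23 without mouse 34. Psmb9 amounted to 0.810, 0.606, 0.676, 1.51 and 0.719% of Psmb6 in AHRfl/fl and to 0.902, 0.614, 0.821, 0.995 and 0.488% in AHRmKO muscle. This gave a difference of -0.14, with a 95% interval of -0.85 to 0.48 (exact permutation P = 0.698), and without AHRfl/fl mouse 15 the value was 0.08. Psmb10 amounted to 4.17, 3.21, 3.79, 4.92 and 4.26% of Psmb7 and to 3.76, 4.03, 3.73, 3.91 and 3.36%, a difference of -0.10, with a 95% interval of -0.35 to 0.15 (exact permutation P = 0.357). Without AHRfl/fl mouse 12 the last difference was -0.19 (exact permutation P = 0.0476). Adjusted over the 3 ratios, each exact permutation P was 0.698. AHRfl/fl mouse 15 had the highest of the 10 values in all 3 ratios. In each of the 10 muscles the inducible transcripts stood between 0.488 and 4.92% of their constitutive counterparts. These shares depend on the length. Per kb of the exon union the mean over 10 mice was 1.07% in place of 2.23% for Psmb8, 0.706% in place of 0.814% for Psmb9 and 8.88% in place of 3.91% for Psmb10, while the log2 differences between the genotypes do not depend on it.

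**Figure D3:**
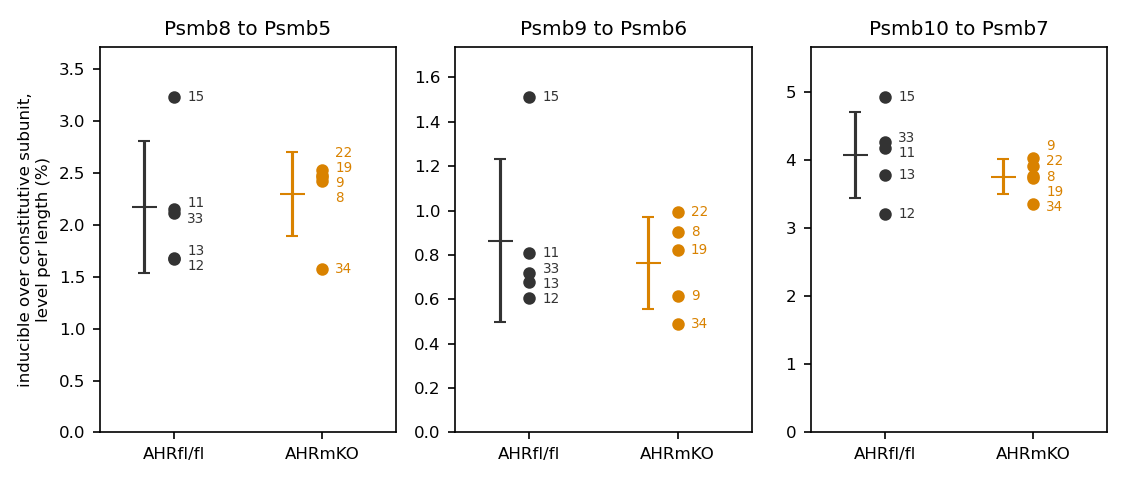
Level per length of Psmb8, Psmb9 and Psmb10 as a percentage of Psmb5, Psmb6 and Psmb7 in each mouse (points with mouse numbers), with mean and SD beside them for 5 AHRfl/fl (black) and 5 AHRmKO (orange) mice. The groups overlap in each panel, and AHRfl/fl mouse 15 is the highest in each.

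The remaining members showed the same narrow range. Psme3 measured 61.0, 61.4, 63.6, 62.7 and 60.7 CPM in AHRfl/fl and 61.1, 59.9, 67.5, 59.7 and 64.3 CPM in AHRmKO muscle, and its log2 fold change of 0.02 (SE 0.06, adjusted P = 0.980 by edgeR) was the smallest in size among the activators. Psme4 measured 219 ± 28.2 CPM and 203 ± 9.61 CPM (SD, n = 5), with a log2 fold change of -0.10 (SE 0.08, adjusted P = 0.862 by edgeR), or -0.04 without AHRfl/fl mouse 12. The assembly chaperones Psmd5, Psmd9 and Psmd10 are present in the maturing particle and absent from the finished one. Psmd10, which is also known as gankyrin, measured 11.8, 13.1, 12.9, 11.9 and 11.3 CPM and 10.6, 10.7, 12.8, 10.3 and 11.5 CPM, with a log2 fold change of -0.12 (SE 0.08, adjusted P = 0.824 by edgeR), and Psmd5, the lowest per length, had one of -0.02 (SE 0.08, adjusted P = 0.980 by edgeR). The sign of Psmd5 turned without AHRfl/fl mouse 12 and without AHRmKO mouse 9 or 19.

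Mice of the same genotype differed from each other in the constitutive genes, and these genes moved together. AHRfl/fl mouse 12 had the highest level of its group in 31 of the 31 tested genes of the 20S core and the 19S particle, against 28.1% of all genes. Among AHRmKO mice, mouse 8 was the lowest in 25 of the 31, against 24.3% of all genes. In AHRmKO, mouse 19 was the highest in 16 and mouse 34 in 13 of them. The mean of the 31 genes, as log2 CPM relative to each gene's mean over 10 mice, was 0.071, 0.26, 0.050, -0.058 and -0.047 in AHRfl/fl mice and -0.19, -0.10, 0.040, -0.078 and 0.050 in AHRmKO mice. The group means on this scale were 0.055 ± 0.13 and -0.055 ± 0.10 (SD, n = 5). The groups overlapped, with the highest of all mice in AHRfl/fl and the lowest in AHRmKO.

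**Figure D4:**
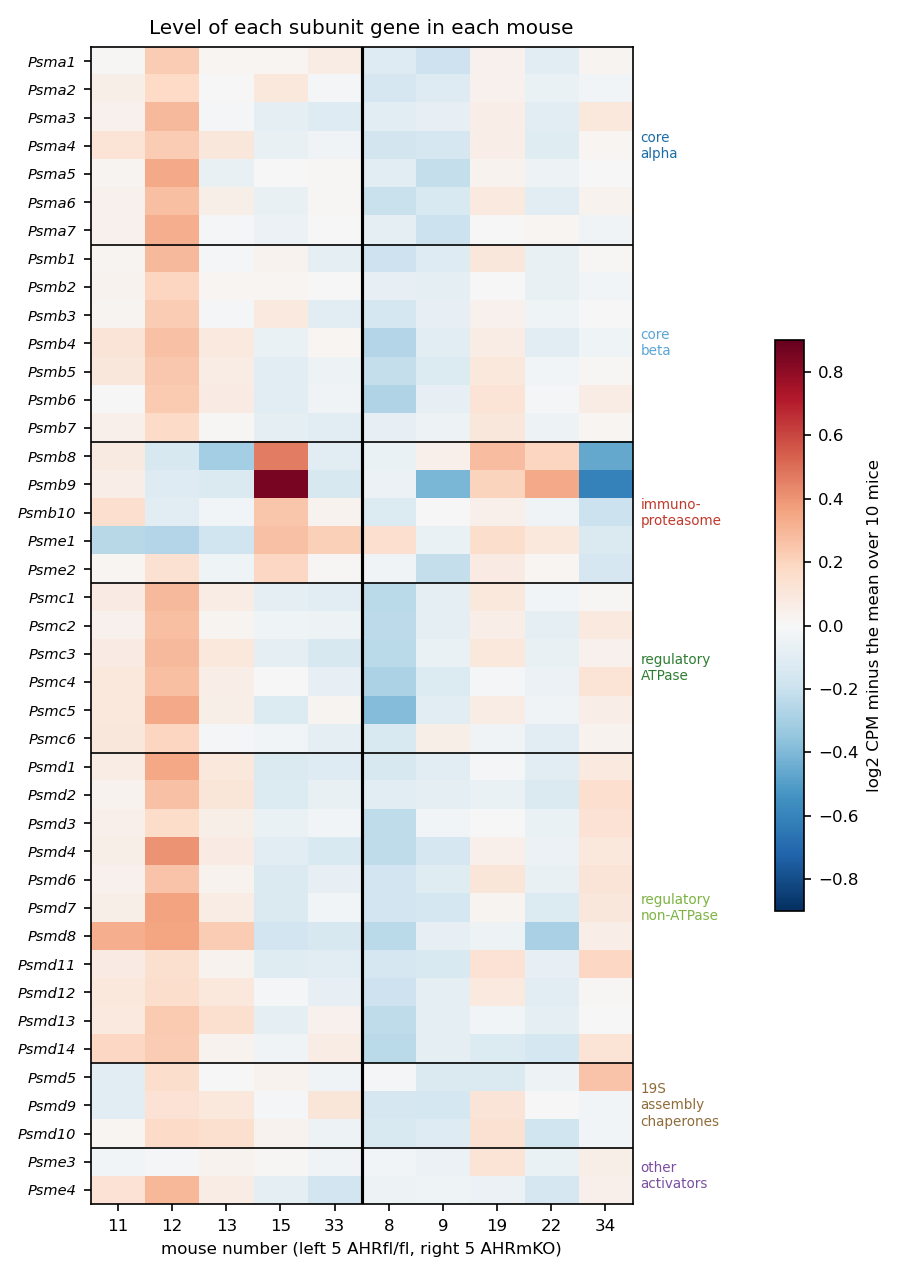
Level of each tested subunit gene (rows, grouped by class) in each mouse (columns, 5 AHRfl/fl left of the line and 5 AHRmKO right of it), as log2 CPM minus the gene's mean over the 10 mice, red above and blue below. AHRfl/fl mouse 12 is high across the constitutive genes, and AHRfl/fl mouse 15 is high in the immunoproteasome genes.

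In AHRfl/fl muscle the immunoproteasome genes were highest in another mouse than the constitutive genes. AHRfl/fl mouse 15 had the highest level of its group in 5 of 5, and mouse 12 in 0 of 5. In AHRmKO muscle mouse 19 was the highest in 4 of 5, the mouse that was also the highest in 16 of the 31 constitutive genes, and mouse 34 was the lowest in 4 of 5. Their mean on the same relative scale was 0.010, -0.098, -0.13, 0.40 and 0.0051 in AHRfl/fl mice and -0.023, -0.12, 0.15, 0.12 and -0.30 in AHRmKO mice. The genes of antigen presentation, which load the peptides that the proteasome cuts onto MHC class I, were highest in the same mouse, with 10 of 10 highest of their group in AHRfl/fl mouse 15, against 21.3% of all genes. In AHRmKO muscle they were spread over mice, with mouse 19 the highest in 4, mouse 22 in 3, mouse 8 in 2 and mouse 9 in 1. The peptide transporter Tap1 measured 3.72, 2.65, 2.34, 7.27 and 3.40 CPM in AHRfl/fl and 2.84, 2.52, 4.11, 2.55 and 2.45 CPM in AHRmKO muscle, and B2m, the light chain of MHC class I, measured 83.1, 71.5, 64.5, 106 and 71.8 CPM and 76.1, 73.6, 72.1, 79.2 and 70.1 CPM. The leukocyte markers, 9 of 9 detected, summed to 29.4 to 44.9 CPM in AHRfl/fl and 25.3 to 50.6 CPM in AHRmKO muscle, and mouse 15 was the highest of its group in 2 of the 9. The slow-fibre markers were highest of their group in mouse 15 for 8 of 8, and their part in its immunoproteasome levels was not tested. With a leukocyte score as a covariate, Psmb8 had a log2 fold change of 0.04 and Psmb9 one of -0.16.

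**Figure D5:**
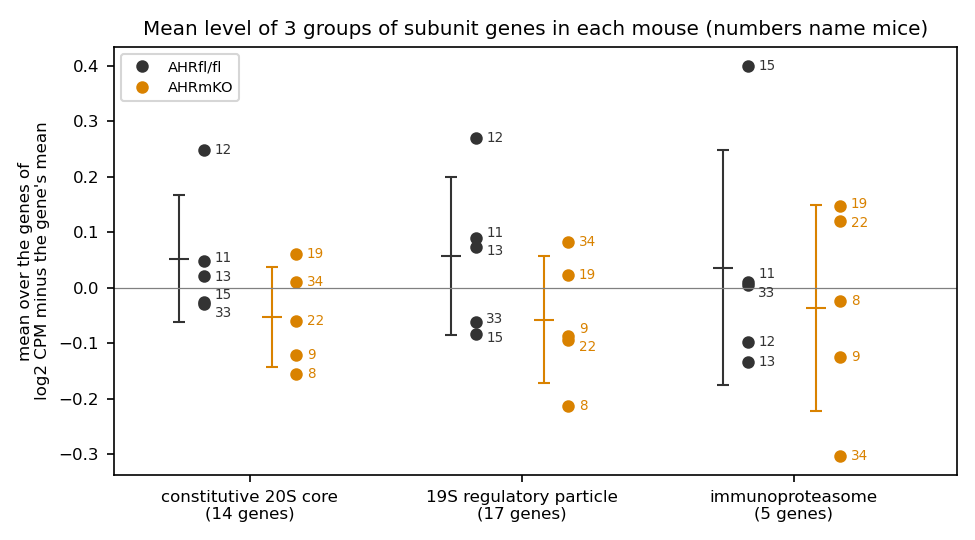
Mean over the genes of log2 CPM minus each gene's mean over 10 mice, for 14 genes of the 20S core, 17 genes of the 19S particle and 5 immunoproteasome genes, 1 point per mouse with its number, and bars for mean and SD over 5 AHRfl/fl (black) and 5 AHRmKO (orange) mice. Mouse 12 is the highest in the first 2 groups of genes and mouse 15 in the third.

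Slow-fibre transcripts varied widely between mice. Myh7, the myosin of slow fibres, measured 14.3, 3.32, 9.34, 489 and 285 CPM in AHRfl/fl and 631, 5.70, 127, 441 and 48.1 CPM in AHRmKO muscle. AHRfl/fl mouse 12 had the lowest value of the 10 and AHRmKO mouse 8 the highest, the reverse of their order in the constitutive proteasome genes. AHRmKO mouse 9 did not follow this order, since its Myh7 was the next lowest after mouse 12 and its mean of the 31 constitutive genes, -0.10, was the next lowest after mouse 8. The 8 slow-fibre markers, all detected, summed to 66.5 to 1764 CPM in AHRfl/fl and 227 to 2125 CPM in AHRmKO muscle. They were lowest of their group in mouse 12 for 7 of 8 and highest of their group in mouse 8 for 8 of 8. All 8 had a fold change above 0 in AHRmKO muscle (median log2 0.44, 0 called). The 4 endothelial markers were likewise lowest of their group in mouse 12 (4 of 4) and highest in mouse 8 (4 of 4), and summed to 101 to 161 CPM in AHRfl/fl and 115 to 205 CPM in AHRmKO muscle. The 7 markers of fast muscle were highest of their group in mouse 12 for 6 and lowest in mouse 8 for 5. They include Acta1 and Ckm, which are not particular to fast fibres. With slow-fibre score in the fit, the median log2 fold change over the members was -0.07, 36 of 41 lay below 0 and 0 were called. Beyond that fit, the part of fibre type or endothelium in the result was not tested.

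Genes that build, regulate or feed the proteasome gave 0 calls in each of 6 lists. Of the 3 subunits with other names, all had a fold change below 0 and 0 had an unadjusted P below 0.05, with the smallest P for Sem1, a small lid subunit (log2 fold change -0.17, SE 0.09, adjusted P = 0.792 by edgeR). With 1 mouse left out the log2 fold change of Sem1 ran from -0.207 to -0.104. Of 6 genes of core assembly, 5 were below 0, and Akirin2, which brings assembled proteasomes into the nucleus, had an unadjusted P of 0.00892. It measured 23.1, 24.7, 21.8, 20.1 and 22.7 CPM in AHRfl/fl and 14.8, 18.0, 17.1, 16.0 and 23.3 CPM in AHRmKO muscle, where 4 AHRmKO mice lay below all AHRfl/fl mice and mouse 34 lay among them (log2 fold change -0.34, SE 0.11, adjusted P = 0.643 by edgeR). Of 10 genes of control and turnover, 6 were below 0. Nfe2l1, the transcription factor that induces subunit genes when proteasome activity falls short, measured 998, 789.5, 1016, 823 and 792 CPM and 763, 850.3, 764, 691 and 751 CPM. The lowest Nfe2l1 of AHRfl/fl was in mouse 12 (789.5 CPM), high in the subunits, and mouse 33, low in the subunits, was nearly equal (792 CPM). Nfe2l1 had a log2 fold change of -0.21 (SE 0.09, adjusted P = 0.724 and unadjusted P = 0.0390 by edgeR). Nfe2l2, a relative of Nfe2l1, measured 41.8, 89.8, 47.6, 35.2 and 48.8 CPM and 49.7, 35.2, 52.1, 55.8 and 96.9 CPM, with mice 12 and 34 highest of their groups (log2 fold change 0.14, SE 0.32, adjusted P = 0.964 by edgeR).

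Among 12 shuttle and proteasome-bound factors, 6 were below and 6 above 0, and Txnl1, a thioredoxin-like protein bound to the 19S particle, measured 62.3 ± 2.89 CPM in AHRfl/fl and 56.4 ± 3.46 CPM in AHRmKO muscle (SD, n = 5). Its log2 fold change was -0.14 (SE 0.06, adjusted P = 0.718 by edgeR), with an unadjusted P of 0.0353. Ubiquitin genes and activating enzymes, 6 in all, had 4 fold changes below 0 and 0 with an unadjusted P below 0.05. Of the 10 genes of antigen presentation, 7 were below 0 and 0 had an unadjusted P below 0.05. The smallest P belonged to Tap1 (log2 fold change -0.42, SE 0.29, adjusted P = 0.829 by edgeR), whose fold change was -0.07 without AHRfl/fl mouse 15.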

How the data were processed

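RNA from the gastrocnemius of 10 smoke-exposed mice, 5 AHRfl/fl and 5 AHRmKO, was sequenced as poly(A)-selected paired-end libraries. After trimming by Trimmomatic 0.36, the authors aligned reads to GRCm38 by STAR 2.5.2b and counted unique alignments on exons with featureCounts. The deposited values are raw counts per Ensembl gene, 1 column per mouse, neither normalized nor pooled. The strandedness of the counting and the Ensembl release are not given in the sources used here. The interval from tamoxifen to smoke follows the labels.

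Symbols, positions and transcript lengths came from GENCODE M21, which holds 49056 of the 49315 identifiers. In R 4.3.3, edgeR 4.0.16 kept genes by filterByExpr (minimum count 10, minimum total 15), scaled libraries by TMM and compared the genotypes by the robust quasi-likelihood test, with Benjamini-Hochberg adjustment over 14714 genes and no covariate. Log2 CPM used a prior count of 2, except in the heat map, which used none. The 3 ratios were compared by exact permutation. Intervals are at 95%. A floor of 3 counts lay between 0.079 and 0.0987 CPM of unnormalized library size and covers counting error only. The fits were also run on simulated data, whose outcome is not reported here and supports no result. Alternatives were DESeq2 1.42.0, voom of limma 3.58.1, other scalings, filters and prior counts, slow-fibre and leukocyte scores as covariates, and leaving out each mouse. A covariate for detected Xist and lengths from the union of exons were added after seeing the data.

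The members, classes and gene lists were chosen with earlier results of these data known. Named members are the immunoproteasome and catalytic genes, those with an unadjusted P below 0.05 or groups that do not overlap, in each class those with the smallest P and the highest and lowest level per length, and those removed by the filter. From each pathway list, genes with an unadjusted P below 0.05 and the 1 with the smallest P are named. A result under this rule is not reported here. Esr1, B2m, Myh7 and Nfe2l2 were named after their values were seen. Markers of endothelium, fibroblasts, fat, red blood cells, Schwann cells and thymus gave 0 calls.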

Additional observations from a re-analysis of the deposited data

Results flagged for a closer look

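In 8 of the 88 groups of 5 values examined, 1 mouse stood apart from the other 4 of its genotype, on the log2 scale, by the share of the group's whole range taken up by the gap to its nearest neighbour (critical value 0.71). Chance alone gives about 1 in 20 groups, or 4.4 of 88, and genes of 1 complex in the same mice are not independent. On the linear CPM scale 11 stood apart, the same 8 together with Psmb1 in AHRfl/fl mouse 12, Psmd5 in AHRmKO mouse 34 and the Psmb9 to Psmb6 ratio in AHRfl/fl mouse 15. AHRfl/fl mouse 12 stood above its group in 5 constitutive genes, with gaps of 0.745 of the range for Psma1, 0.773 for Psma5, 0.758 for Psma7, 0.820 for Psmb2 and 0.736 for Psmc2. Psma5 measured 52.4, 65.2, 49.1, 51.5 and 51.8 CPM, Psma7 92.6, 113, 89.2, 86.9 and 90.4 CPM and Psmc2, an ATPase, 149, 175, 147, 141 and 141 CPM in AHRfl/fl mice. AHRfl/fl mouse 15 stood above its group in Psmb9 (0.800 of the range). AHRmKO mouse 34 stood above its group in Psmd2, a scaffold subunit of the 19S base (0.771), with 241, 244, 247, 236 and 286 CPM in AHRmKO mice. The same mouse stood below its group in the ratio of Psmb8 to Psmb5 (0.911).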

How the results depend on the processing

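No proteasome subunit gene was called under any of the 9 alternative fits or when any 1 mouse was left out. The number of members with a fold change below 0 was 36 to 40 under the alternatives and 34 to 39 with 1 mouse left out. The median log2 fold change over the members ran from -0.13 to -0.07 and from -0.14 to -0.05.

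Over all genes, 1 was called by edgeR, 21 by the DESeq2 Wald test, 5 without a filter beyond 1 count, 2 with slow-fibre score in the fit, and 1 to 6 with 1 mouse left out (6 without AHRmKO mouse 34). Members with an unadjusted P below 0.05 numbered 12 with library size alone and 0 to 6 with 1 mouse left out (0 without AHRfl/fl mouse 12 or AHRmKO mouse 8, 1 without AHRfl/fl mouse 11 or AHRmKO mouse 22, 2 without AHRfl/fl mouse 13 or AHRmKO mouse 9).

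The sign of some log2 values turned. Psmb8 was 0.00279 under limma-voom, 0.0422 with the leukocyte score, 0.0595 with Xist presence and -0.0777 to 0.130 with 1 mouse left out. Psmb7 was 0.0159 and Psme1 -0.000338 with the slow-fibre score, and Psme3 was -0.00393 with library size alone. With 1 mouse left out, Psmb7 ran from -0.0472 to 0.0218, Psmb9 from -0.347 to 0.0196, Psmd5 from -0.0938 to 0.0168, Psme3 from -0.00991 to 0.0311, the immunoproteasome median from -0.148 to 0.0196, and the log2 difference of the Psmb9 to Psmb6 ratio from -0.241 to 0.0829 (0.01 without AHRmKO mouse 34). That of the Psmb8 to Psmb5 ratio ran from 0.0191 to 0.254. That of the Psmb10 to Psmb7 ratio ran from -0.185 to -0.0317, and without AHRfl/fl mouse 12 alone its exact permutation P, 0.0476, was below 0.05. The cause was not tested. No paired analysis was possible because mouse numbers do not repeat between the genotypes.

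Psmb9 had the fewest counts of the tested members, 42 to 121 per library. Half-widths of the intervals of constitutive genes were 0.12 or more.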
